A study of Mus musculus with 75 samples.

Results

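The genes described here were 58 genes of the dividing cell, 20 that act in S phase and 38 that act in mitosis. Their symbols were given as a list and found in the annotation that the files use, and each matched 1 of the 55536 genes of the count table. All 58 passed the filter on low counts, as 16221 genes of the table did. The S phase genes were the 6 subunits of the MCM helicase (*Mcm2* to *Mcm7*), the licensing factors *Cdc6* and *Cdt1*, the helicase activators *Cdc45*, *Gins1*, *Gins2* and *Mcm10*, the fork and nucleotide genes *Pcna*, *Rrm2*, *Tyms* and *Uhrf1*, and the regulators *Ccne1*, *Ccne2*, *E2f1* and *E2f8*. The mitotic genes covered 10 roles, from the cyclins and *Cdk1* to the kinesin motors, the kinetochore and the factors that end mitosis. *Mki67*, the usual marker of cycling cells, was counted with the mitotic genes.

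The study sequenced 1 library from each of 75 male mice of strain C57BL/6JRj, made from the right inferior lobe after lavage of the lung. BLEO-IPF mice had received bleomycin once into the trachea at 12 to 14 weeks of age, and only mice that had lost 5 to 17% of body weight by day 6 were kept. The control group (CTRL) and day 7 held 10 mice each, each of days 14, 21, 28 and 35 held 12, and day 42 held 7. The sample labels call the controls saline-treated, whereas the treatment protocol calls them untreated, and their age is not given separately. Total counts per library ran from 9240291 to 14665247. Markers of type 2 alveolar cells were abundant in the controls, with a median summed level of 22251 CPM, the counts of a gene relative to the library total. All comparisons with CTRL share the same 10 control mice.

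A cell that divides first licenses its replication origins by loading the MCM helicase, then activates the helicase and copies its DNA, and later builds a spindle that pulls the copies apart. E2F transcription factors switch on many replication genes when the cell leaves G1. Many mitotic genes are held back until G2 by the DREAM complex and then raised by B-Myb and FoxM1. These factors act through the cell cycle genes homology region (CHR) of the promoters. CCAAT boxes also occur in such promoters. Bleomycin breaks DNA and injures the alveolar epithelium, and the repair that follows includes division of epithelial, mesenchymal and immune cells. In RNA of whole tissue, more cells of a type and more RNA per cell cannot be told apart.

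Promoters are shown for 3 mitotic and 3 S phase genes, chosen among those with matches, because the letters that the classes carry differ. The stretches run from 170 bases before to 30 bases from the RefSeq start of the gene, 5′ to 3′ on the gene's strand, in build GRCm38.p6. Capitals mark matches, on either strand, to the E2F motif TTTNNCGC, the CHR motif TTTGAA and CCAAT.
Mki67 (chr7:135716350-135716549, minus strand): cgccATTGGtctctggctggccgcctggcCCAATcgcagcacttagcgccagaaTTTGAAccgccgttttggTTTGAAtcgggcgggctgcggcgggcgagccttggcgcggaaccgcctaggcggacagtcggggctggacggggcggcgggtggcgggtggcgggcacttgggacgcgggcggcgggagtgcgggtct
Cdc20 (chr4:118437314-118437513, minus strand): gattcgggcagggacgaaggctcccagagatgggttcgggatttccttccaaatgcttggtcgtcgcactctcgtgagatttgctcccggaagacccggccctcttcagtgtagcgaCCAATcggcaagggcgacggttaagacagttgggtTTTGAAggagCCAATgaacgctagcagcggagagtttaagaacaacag
Cdk1 (chr10:69352883-69353082, minus strand): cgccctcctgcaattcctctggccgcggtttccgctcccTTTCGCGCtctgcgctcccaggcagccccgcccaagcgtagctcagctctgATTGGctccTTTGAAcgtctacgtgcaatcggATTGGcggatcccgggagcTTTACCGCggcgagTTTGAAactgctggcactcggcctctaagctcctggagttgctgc
Mcm5 (chr8:75109339-75109538, plus strand): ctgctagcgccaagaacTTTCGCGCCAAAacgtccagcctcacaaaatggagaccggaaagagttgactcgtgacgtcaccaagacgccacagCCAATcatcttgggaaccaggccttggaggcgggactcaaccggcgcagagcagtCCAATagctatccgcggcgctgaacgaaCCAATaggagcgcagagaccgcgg
Mcm6 (chr1:128359676-128359875, minus strand): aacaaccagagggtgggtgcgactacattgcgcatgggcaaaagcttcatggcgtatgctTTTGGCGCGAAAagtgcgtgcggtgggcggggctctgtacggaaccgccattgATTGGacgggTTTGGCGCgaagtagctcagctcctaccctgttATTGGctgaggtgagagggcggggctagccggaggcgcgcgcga
Uhrf1 (chr17:56303167-56303366, plus strand): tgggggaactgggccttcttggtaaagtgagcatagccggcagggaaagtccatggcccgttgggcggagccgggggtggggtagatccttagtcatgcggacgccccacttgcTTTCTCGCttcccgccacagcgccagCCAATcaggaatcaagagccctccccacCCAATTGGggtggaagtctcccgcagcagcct

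Windows of 300 bases, from 250 before to 50 after the RefSeq start, were at hand for 49 of the 58 genes, 16 of S phase and 33 of mitosis. The E2F motif was found in the windows of 8 of the 16 S phase genes (50%), 2 of the 33 mitotic genes (6.06%) and 5.93% of all 27025 genes with a window. For the CHR motif the order was the other way round, with 3 S phase genes (18.75%), 25 mitotic genes (75.8%) and 20.2% of all genes. CCAAT did not separate the classes, with 68.75% of the S phase and 72.7% of the mitotic genes against 41.1% of all genes. CHR and CCAAT stood together in 21 mitotic genes (63.6%), 3 S phase genes (18.75%) and 8.97% of all genes. Among the 146 matches in the members' windows, 2 pairs of different motifs and 4 pairs of the same motif overlapped. *Cdk1* held all 3 motifs. A match describes letters in the window and was not tested as a binding site. The windows of *Ccna2*, *Foxm1*, *Aurkb*, *Kif20a*, *Tpx2*, *Mcm4*, *Gins1*, *Gins2* and *Ccne2* were not analysed here.

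All 38 mitotic and all 20 S phase genes were higher than in CTRL on days 7, 14 and 21 by edgeR's quasi-likelihood test, with p-values adjusted by the Benjamini-Hochberg method over all genes and a threshold of 0.05. Of all genes tested, 24.8%, 32.4% and 28.3% were called higher on these days. On day 28 all 38 mitotic but 17 of 20 S phase genes were still higher (24.1% of all genes). On day 35 the counts were 33 and 6 (16.9% of all genes), and on day 42 they were 8 and 2 (13.7% of all genes). Without replicate 6 of day 35 the counts of that day were 24 and 2. On day 42 the shares of members called, 21.1% of the mitotic and 10.0% of the S phase genes, thus lay near that of all genes.

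The median log2 fold change (log2FC) against CTRL was larger for the mitotic than for the S phase genes on every day, a difference that was not tested. For the mitotic genes it was 1.86, 2.29 and 2.11 on days 7, 14 and 21, and then 1.48, 0.75 and 0.51 on days 28, 35 and 42. The S phase genes had medians of 1.16, 1.25 and 1.08, and then 0.52, 0.20 and 0.10. Over all genes the median stayed between -0.002 and 0.02. Day 14 held the highest log2FC of 36 mitotic and 17 S phase genes.

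**Figure D1:**
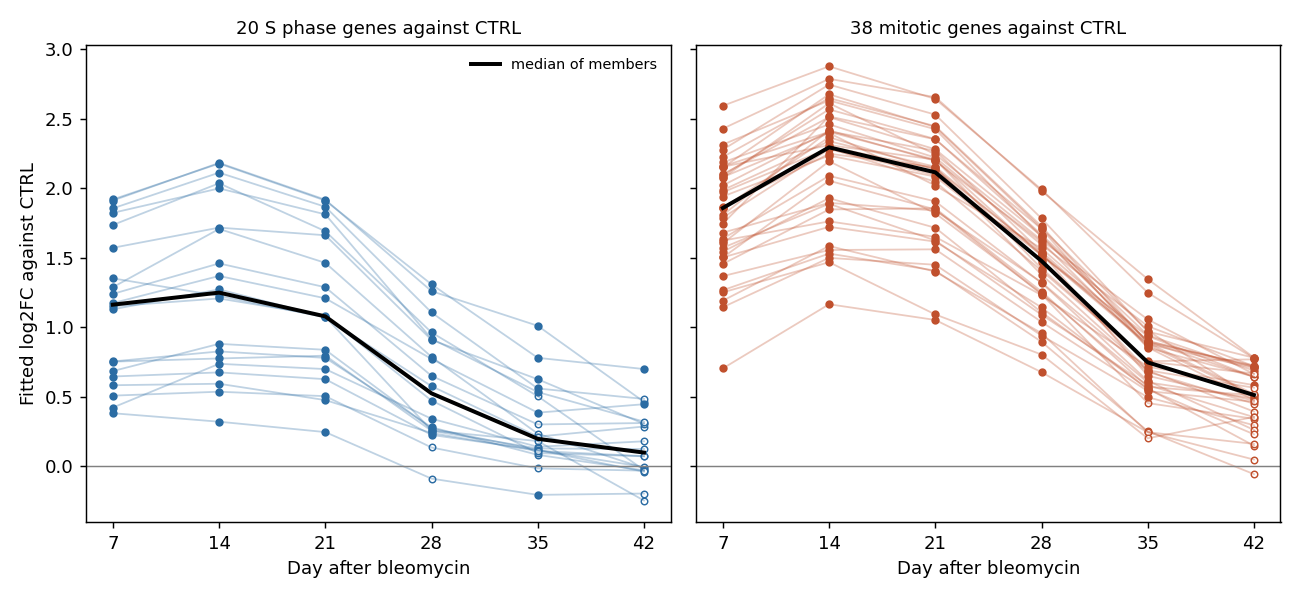
Fitted log2FC against CTRL (vertical axis) by day after bleomycin (horizontal axis) for each S phase gene (left) and each mitotic gene (right). Filled points passed an adjusted p of 0.05, open points did not, and the black line is the median of the members, which peaked on day 14 at 1.25 for S phase and 2.29 for mitosis.

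The summed level of the 38 mitotic genes in single CTRL mice lay between 133 and 211 CPM, with a median of 176 CPM. On day 14 it ran from 481 through a median of 765 to 1049 CPM, and every mouse of days 7, 14 and 21 lay above the highest CTRL mouse. The 20 S phase genes summed to 258 to 295 CPM in CTRL, with a median of 274 CPM, and to 349 to 597 CPM on day 14, with a median of 511 CPM. All mice of days 7 to 21 again lay above CTRL. On day 42 the mitotic sum spanned 178 to 371 CPM, with 5 of 7 mice above the highest CTRL mouse, and the S phase sum 270 to 312 CPM, with 2 of 7 mice above.

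The ratio of the summed levels therefore differed between groups, which was not tested. Abundant genes weigh most in such sums. On day 14 the mean S phase sum was 1.83 times that of CTRL, whereas the median S phase gene rose 2.38-fold. For the mitotic genes these values were 4.49 times and 4.91-fold. Mitotic genes gave 0.624 ± 0.0913 (SD, n = 10) of the S phase sum in CTRL and 1.53 ± 0.169 (SD, n = 12) on day 14. On day 42 the ratio was 0.837 ± 0.180 (SD, n = 7), and 6 of the 7 mice still lay above all CTRL mice. The S phase sum was the steadier one among control mice, with an SD of 4.24% of the mean against 16.4% for the mitotic sum.

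**Figure D2:**
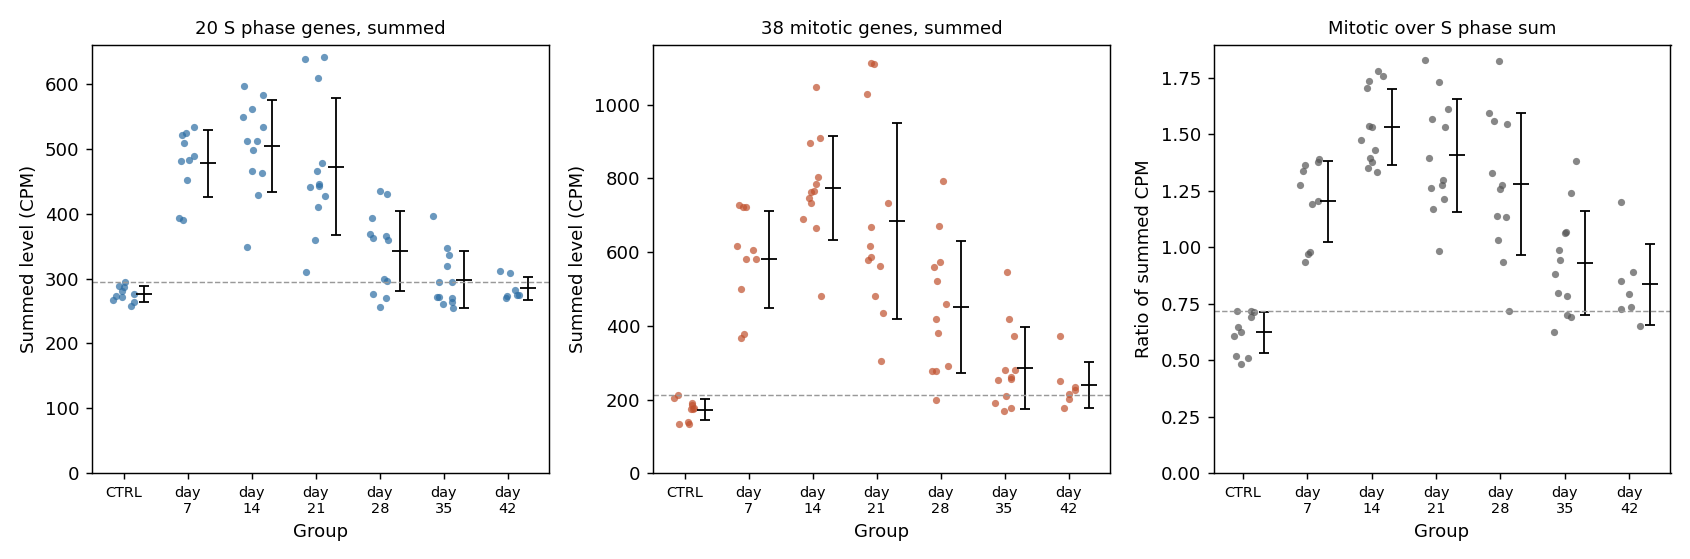
Summed CPM of the S phase genes (left) and of the mitotic genes (middle), and their ratio (right), by group, with 1 point per mouse, the mean and SD beside the points and a dashed line at the highest CTRL mouse. All mice of days 7, 14 and 21 lie above the line in the 3 panels, and mice of days 28 and 35 spread from the CTRL range to several times its mean in the mitotic sum.

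*Mki67* (ENSMUSG00000031004, chr7:135689784-135716361) coats chromosomes in mitosis. Its level in CTRL had a lowest, median and highest value of 11.4, 18.7 and 28.3 CPM. On day 14 these were 51, 96.9 and 142 CPM, a log2FC of 2.28 ± 0.24 (SE, adjusted p = 8.5e-13), or 4.86-fold, with no overlap. On day 28 they were 22.6, 52 and 97.6 CPM, with 11 of 12 mice above the highest CTRL mouse, and on day 42 they were 16.2, 26.3 and 49.4 CPM, where log2FC was 0.51 ± 0.26 (SE, adjusted p = 0.15). *Top2a*, which untangles DNA copies, ran alongside, from 9.22, 16.1 and 22.3 CPM in CTRL to 39.6, 81.2 and 115 CPM on day 14 (log2FC 2.34 ± 0.23).

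The cyclins and *Cdk1*, which drive entry into mitosis, held the largest increase. *Ccnb1* (cyclin B1) had 0.380, 1.21 and 2.29 CPM in CTRL and 7.14, 8.70 and 11.5 CPM on day 14, a log2FC of 2.88 ± 0.28 (adjusted p = 1.1e-13), or 7.35-fold. Its low level in CTRL makes that fold imprecise. *Cdk1* rose by 2.75 ± 0.24 and *Ccna2* (cyclin A2) by 2.57 ± 0.22 on the same day. Both were still called on day 42, at 0.78 ± 0.28 (adjusted p = 0.031) and 0.69 ± 0.25 (adjusted p = 0.035), whereas *Ccnb1* at 0.78 ± 0.33 missed the threshold (adjusted p = 0.076).

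On day 42 the levels of *Cdk1*, with 2.74, 5.33 and 9.75 CPM against 2.05, 3.09 and 4.74 CPM in CTRL, and of *Ccna2*, with 6.60, 9.14 and 11.9 CPM against 3.52, 5.80 and 7.51 CPM, overlapped those of CTRL.

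The kinetochore, which ties chromosomes to the spindle, and the chromosomal passenger complex, which corrects those attachments, also had members called on all 6 days. *Spc25*, a subunit of the NDC80 complex, had 0.921, 1.52 and 2.19 CPM in CTRL and 8.23, 11.1 and 14.1 CPM on day 14 (log2FC 2.79 ± 0.24). It kept the largest mitotic log2FC on day 35, 1.35 ± 0.25 (adjusted p = 1.7e-05). *Birc5* (survivin) had 1.51, 2.12 and 2.97 CPM in CTRL and 8.55, 11.8 and 13.7 CPM on day 14 (log2FC 2.41 ± 0.24). *Cenpa*, the histone variant that marks centromeres, had the smallest mitotic log2FC on day 14, 1.17.

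Kinases, motors and spindle genes were likewise higher on day 14. *Plk1*, a kinase that acts from the start of mitosis to its end, had 1.24, 2.14 and 2.77 CPM in CTRL and 6.97, 11.1 and 18.8 CPM on day 14 (log2FC 2.41 ± 0.23). *Aurkb*, the kinase of the passenger complex, had 1.48, 2.36 and 2.88 CPM in CTRL and 8.48, 11.4 and 17.2 CPM on day 14 (log2FC 2.40 ± 0.22). Neither overlapped CTRL on day 14, and both were called on all 6 days. Among the 7 kinesins the log2FC of day 14 ran from 1.56 for *Kif23* to 2.65 for *Kif20a*, which helps cells to part. *Kif20a* had 2.56, 3.88 and 4.41 CPM in CTRL and 12.8, 22.5 and 32 CPM on day 14. *Hmmr*, a spindle assembly factor, had 1.43, 1.94 and 2.97 CPM in CTRL and 6.97, 13.2 and 19.9 CPM on day 14 (log2FC 2.68 ± 0.28). In these genes too every mouse of day 14 lay above every CTRL mouse.

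The spindle checkpoint holds cells in mitosis until all chromosomes are attached. Its kinase *Ttk* had 0.318, 0.939 and 1.6 CPM in CTRL and 3.78, 5.61 and 7.65 CPM on day 14 (log2FC 2.61 ± 0.25), whereas *Bub1* and *Bub1b*, its partners at unattached kinetochores, rose by 1.53 and 1.5. *Ect2*, a trigger of cytokinesis, had 3.61, 5.02 and 6.51 CPM in CTRL and 7.56, 17.8 and 22.3 CPM on day 14 (log2FC 1.76 ± 0.19), and was called on all 6 days.

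Protein destruction drives both entry into mitosis and exit from it. *Cdca3*, which marks an inhibitor of mitotic entry for destruction, had 1.43, 2.41 and 2.87 CPM in CTRL and 8.75, 12.5 and 15.7 CPM on day 14 (log2FC 2.46 ± 0.22), and was called on all 6 days. *Foxm1*, a transcription factor of the mitotic genes, had 2.19, 4.23 and 6.56 CPM in CTRL and 14.9, 19.9 and 27.9 CPM on day 14 (log2FC 2.19 ± 0.21), and its partner *Mybl2* rose by 1.47. Neither was called on day 42 (0.49 ± 0.24 with adjusted p = 0.13, and 0.35 ± 0.22 with adjusted p = 0.24).

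By role, the 6 MCM subunits had the smallest median among the S phase genes, a log2FC of 0.72 on day 14 and a range from 0.32 for *Mcm4* to 1.21 ± 0.14 for *Mcm5*. *Mcm5* had 12.8, 17.4 and 18.2 CPM in CTRL and 21.0, 40.2 and 48.3 CPM on day 14, without overlap. Helicase activators had a median of 1.59, fork and nucleotide genes 1.68, the E cyclins and E2F factors 1.87, and the 2 licensing factors 1.08. Single genes did not keep that order, since *Pcna* at 0.59 and *E2f1* at 0.74 lay below *Mcm5*, and no difference between roles was tested. On day 28 the MCM median was 0.24 and on day 35 it was 0.09, when 4 and 0 of the 6 subunits were called higher.

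*Mcm4* (ENSMUSG00000022673, chr16:15623897-15637400) was the only member called lower than CTRL on any day, on day 35, when 13.1% of all genes were. Its lowest, median and highest values were 36.7, 39.7 and 44.1 CPM in CTRL, 36.2, 49.5 and 59.7 CPM on day 14 and 29.9, 34 and 48.7 CPM on day 35. The log2FC was 0.32 ± 0.07 (adjusted p = 9.1e-05) on day 14 and -0.21 ± 0.07 (adjusted p = 0.022) on day 35. The groups overlapped in both comparisons, and on day 42 the value of -0.20 ± 0.08 did not pass (adjusted p = 0.071). *Mcm4* was among the members with the highest level per length in CTRL, 11.1 CPM per kilobase of exon, behind *Pcna* with 20.3 CPM per kilobase.

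*Pcna*, the sliding clamp of DNA polymerase, showed a small but even rise. It had 41.6, 49.4 and 53 CPM in CTRL and 61.4, 76.5 and 81.5 CPM on day 14, with no overlap. That was a log2FC of 0.59 ± 0.07 (adjusted p = 2.6e-11), or 1.51-fold, and on day 35 it was 0.11 ± 0.07 (adjusted p = 0.23). *Rrm2*, the regulated subunit of ribonucleotide reductase, rose more from a lower level, from 5.01, 6.07 and 7.13 CPM to 19.1, 26 and 33.6 CPM (log2FC 2.11 ± 0.21).

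*Gins2* and *Tyms* were the 2 S phase genes called on all 6 days. *Gins2*, part of the active helicase, had 1.23, 2.08 and 3.14 CPM in CTRL, 7.03, 9.25 and 12.7 CPM on day 14 and 2.40, 3.36 and 4.73 CPM on day 42, where log2FC was 0.70 ± 0.22 (adjusted p = 0.017). *Tyms*, which makes thymidylate, had 4.68, 6.18 and 8.54 CPM in CTRL and 7.64, 8.48 and 9.98 CPM on day 42 (log2FC 0.45 ± 0.16, adjusted p = 0.035). In both, the groups of day 42 and CTRL overlapped. *E2f8*, an atypical E2F that represses replication genes late in S phase, had 1.16, 1.61 and 1.94 CPM in CTRL and 5.37, 7.03 and 9.67 CPM on day 14 (log2FC 2.18 ± 0.21), and was still called on day 35 (1.01 ± 0.22, adjusted p = 0.00018). *Cdc6*, which loads the MCM helicase, had 2.19, 2.74 and 4.74 CPM in CTRL and 2.52, 8.00 and 10.3 CPM on day 14 (log2FC 1.27 ± 0.20), with 11 of 12 mice above CTRL. It was not called from day 28 on (0.26 ± 0.20, adjusted p = 0.30).

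The 10 genes called on all 6 days were *Gins2*, *Tyms*, *Spc25*, *Birc5*, *Ccna2*, *Cdk1*, *Aurkb*, *Plk1*, *Cdca3* and *Ect2*, against 8.33% of all genes tested. Their calls on day 42 had adjusted p-values between 0.017 and 0.047 and depended on single mice. *Gins2* and *Ccna2* each share exonic sequence with a more abundant gene on the other strand, so their levels are uncertain. Without replicate 7 of day 42, edgeR's test called 0 of 38 mitotic genes, and without the filter on low counts it also called 0. A fit of only CTRL and day 42 called 26. Replicate 7 of day 42 had a mitotic sum of 371 CPM, with 36 of 38 mitotic genes above the highest CTRL mouse. In that mouse the summed markers of monocyte-derived macrophages, 3570 CPM, and of fibroblasts and myofibroblasts, 3664 CPM, also lay above those of the other 6 mice, which reached 2378 and 3277 CPM. Type 2 alveolar cell markers, 21744 CPM, lay below the 22762 to 27708 CPM of the others. Their part in the result was not tested.

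No overlap with CTRL was the rule early on, except among the S phase genes on day 21. On days 7, 14 and 21, 36, 37 and 33 mitotic genes and 16, 14 and 9 S phase genes had every BLEO-IPF mouse above every CTRL mouse, as did 7.39%, 9.46% and 6.84% of all genes. On day 28 this held for 4 mitotic genes (*Ccnb2*, *Aurkb*, *Melk* and *Cdca3*) and 0 S phase genes, against 2.1% of all genes, and on days 35 and 42 for 0 members, against 2.43% and 4.22% of all genes.

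Mice of the same day differed widely on days 28 and 35. In single mice of day 28 between 7 and 38 of the mitotic genes exceeded the highest CTRL mouse, with a median of 37.5, and on day 35 between 1 and 37, with a median of 26.5. For S phase the ranges were 1 to 19 of 20 on both days, with medians of 15.5 and 7. The SD of the mitotic sum was 22.7, 18.1, 38.7, 39.6, 39.1 and 26.2% of the mean over the 6 days in turn. Replicate 11 of day 28 had the lowest mitotic sum of its day, 198 CPM, inside the CTRL range, and replicate 6 of day 35 had the highest of its day, 547 CPM. The former also had the most total counts of its day, 13704519 against 9249037 to 10682713 in the other mice. A part of depth was not tested.

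Markers of other cells in these mice were as follows. In replicate 11 of day 28 the fibroblast and myofibroblast markers summed to 2750 CPM, just below the 2861 to 9697 CPM of the other mice of that day. In replicate 6 of day 35 they summed to 6066 CPM, above the 2997 to 4504 CPM of the others, while type 2 alveolar cell markers, 13573 CPM, lay below the 19766 to 26585 CPM of the others. Their part in the members' levels was not tested.

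Each step between days was tested in the same fit. From day 7 to day 14, 5 mitotic genes (*Cenpf*, *Prc1*, *Foxm1*, *Anln* and *Cenpa*) and 1 S phase gene (*E2f1*) rose, 13.2% and 5.0% of their classes against 9.48% of all genes. *Cenpf*, a late kinetochore protein, changed most, by 0.77 ± 0.23 (adjusted p = 0.014). From day 14 to day 21, edgeR's test called 0 members, with 3 mitotic and 0 S phase genes at an unadjusted p under 0.05, and DESeq2 also called 0. Of all genes, 1.03% were called in that step.

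From day 21 to day 28 the medians of both classes fell alike, by 0.61 on the log2 scale for the mitotic and 0.58 for the S phase genes. Of the calls most lay in S phase, where 14 of 20 S phase genes and 2 of 38 mitotic genes were called lower, against 0.314% of all genes. Among the S phase genes, *Uhrf1*, which directs DNA methylation to new DNA strands, fell by 0.90 ± 0.19 on the log2 scale (adjusted p = 0.0058), *Cdc6* by 0.82 ± 0.18 (adjusted p = 0.011) and *Mcm3* by 0.54 ± 0.094 (adjusted p = 0.00045). *Uhrf1* had 7.18, 15.5 and 27.5 CPM on day 21 and 3.84, 9.17 and 16.4 CPM on day 28. The mitotic genes called were *Birc5* and *Ccnb2*, with changes of -0.78 ± 0.20 and -0.77 ± 0.19. The SE was 0.068 for *Mcm4* and 0.21 for *Mki67*, and 37 of 38 mitotic genes had an unadjusted p under 0.05. A difference between the classes in this step was not tested.

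These calls depended on the fit. With only the mice of days 21 and 28 in the fit, edgeR's test called 0 of the 58 genes lower. With 1 mouse left out at a time the number ran from 3, without replicate 10 of day 28, to 46, without replicate 2 of day 28.

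From day 28 to day 35 the calls lay in the other class. Of the mitotic genes 11 fell, among them *Tpx2* (-0.88 ± 0.21), *Cenpf* (-0.85 ± 0.23), *Kif20a* (-0.84 ± 0.22) and *Cdk1* (-0.81 ± 0.21), with adjusted p-values between 0.020 and 0.042, against 0.462% of all genes. Of the S phase genes 0 were called by edgeR's test and 0 by DESeq2, with 8 at an unadjusted p under 0.05. Here the medians differed as well, -0.67 for the mitotic and -0.27 for the S phase genes. *Tpx2*, which builds spindle microtubules, had 6.12, 14.7 and 30.1 CPM on day 28 and 4.56, 7.79 and 17.3 CPM on day 35, with wide overlap. With only these 2 days in the fit 0 members were called, and with 1 mouse left out the count ran from 0, without replicate 1 of day 28, to 34, without replicate 6 of day 35.

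From day 35 to day 42, edgeR's test called 0 members, as it did over all genes (0% called), with 1 mitotic and 1 S phase gene at an unadjusted p under 0.05. DESeq2 called 0 members. Between day 14 and day 42 all 58 genes fell, against 18.8% of all genes. The changes ran from -0.52 for *Mcm4* to -2.19 for *Hmmr*, and for 28 mitotic and 12 S phase genes every mouse of day 42 lay below every mouse of day 14, as for 2.68% of all genes.

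**Figure D3:**
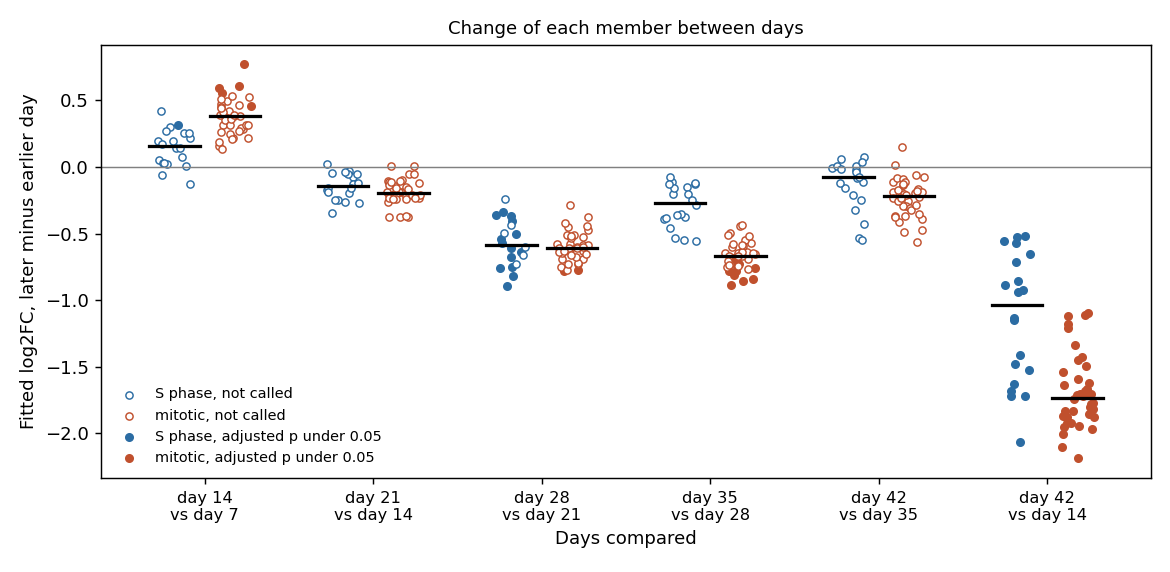
Fitted log2FC of each member (vertical axis, later minus earlier day) for 6 pairs of days (horizontal axis), S phase in blue and mitotic genes in red, filled where the adjusted p passed 0.05, with a black bar at the median. From day 21 to 28 the medians are alike at -0.58 and -0.61, and from day 28 to 35 they are -0.27 and -0.67.

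Expressed as a share of the rise on day 14, the S phase genes had less left on the later days. On day 28 the median share of the log2FC of day 14 was 64.9% for the mitotic and 45.2% for the S phase genes. On day 35 it was 33.7% and 17.9%, and on day 42 it was 24% and 14.0%. A difference between the classes was not tested, and they overlapped in these shares, which on day 28 ran from 54.7 to 71.1% among the mitotic genes and from -28.1 to 60.1% among the S phase genes.

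Coupling across mice was measured on the deviations of each mouse from the mean of its group. Differences in mean level between groups therefore did not enter, whereas groups with a wider spread weighed more in r over all mice. The SD of the mean mitotic log2 level was 0.22 in CTRL, 0.25 on day 14 and 0.59 on day 28. *Mki67* was positively correlated with all 57 other members over 75 mice, by permutation of mice within groups with p-values adjusted over all 16220 other genes. Of all genes 18.9% were called positive in the same way, and the median r over all genes was -0.005. The median r was 0.82 for the 37 mitotic genes and 0.68 for the 20 S phase genes. Spearman's rho gave 57 calls as well, with medians of 0.78 and 0.64.

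*Top2a* was the closest partner, with r = 0.961 and rho = 0.947 (permutation p = 1e-05 for both, the smallest these permutations can give, adjusted p = 0.00014 and 0.00015). The kinesins *Kif11* (r = 0.916) and *Cenpe* (r = 0.909) followed. The weakest partner was *Pcna*, with r = 0.420 (permutation p = 0.00057, adjusted p = 0.0034) and rho = 0.327 (permutation p = 0.0075, adjusted p = 0.025). Without replicate 11 of day 28 and replicate 6 of day 35, the mice farthest from the median of *Mki67*, r was 0.955 for *Top2a* and 0.408 for *Pcna*.

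Within single groups the median r with *Mki67* was lowest in CTRL, at 0.21 for S phase and 0.63 for mitotic genes. In the mice of days 7 and 14 it was 0.74 and 0.53 for S phase and 0.82 and 0.70 for mitotic genes. It was highest in the mice of day 21, at 0.90 and 0.93, followed by 0.84 and 0.92 for day 28, 0.69 and 0.91 for day 35 and 0.36 and 0.79 for day 42. Adjusted over all genes in permutation tests, 7 of 57 members were called in the mice of day 7 (0.401% of all genes), 11 in those of day 14 (1.56%) and 57 in those of day 21 (11.5%). Day 28 gave 50 (3.06%) and day 35 gave 34 (1.23%). By Spearman's rho the counts on these days were 0, 0, 47, 51 and 12. In CTRL and on day 42 the count was 0 of 57, as for all genes (0% called). With the 7 mice of day 42 the permutations are few, so that a p low enough to pass over all genes could hardly arise. The 0 of day 42 therefore says little about coupling in that group. The spread of the mice differed in a similar order, though not in every group. The SD of the mean mitotic log2 level was 0.22 in CTRL and, over the 6 days in turn, 0.33, 0.25, 0.56, 0.59, 0.49 and 0.31. Whether r differed between groups was not tested.

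Without the 2 mice farthest from the group's median of *Mki67*, the median r of the S phase genes was 0.10 in CTRL and, over the 6 days in turn, 0.44, 0.12, 0.86, 0.78, 0.55 and 0.12. For the mitotic genes it was 0.49, 0.61, 0.46, 0.89, 0.87, 0.86 and 0.29. Leaving out the extreme values of *Mki67* also narrows its range and can lower r by itself. These falls therefore cannot show whether the relation rested on single mice.

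The means of both classes moved together in every group, with r between 0.61 in CTRL and 0.98 on day 21. Mitotic genes varied more: over all deviations their mean log2 level had an SD of 0.41, against 0.27 for S phase. The 2 means share libraries and scaling, so these values are a description.

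**Figure D4:**
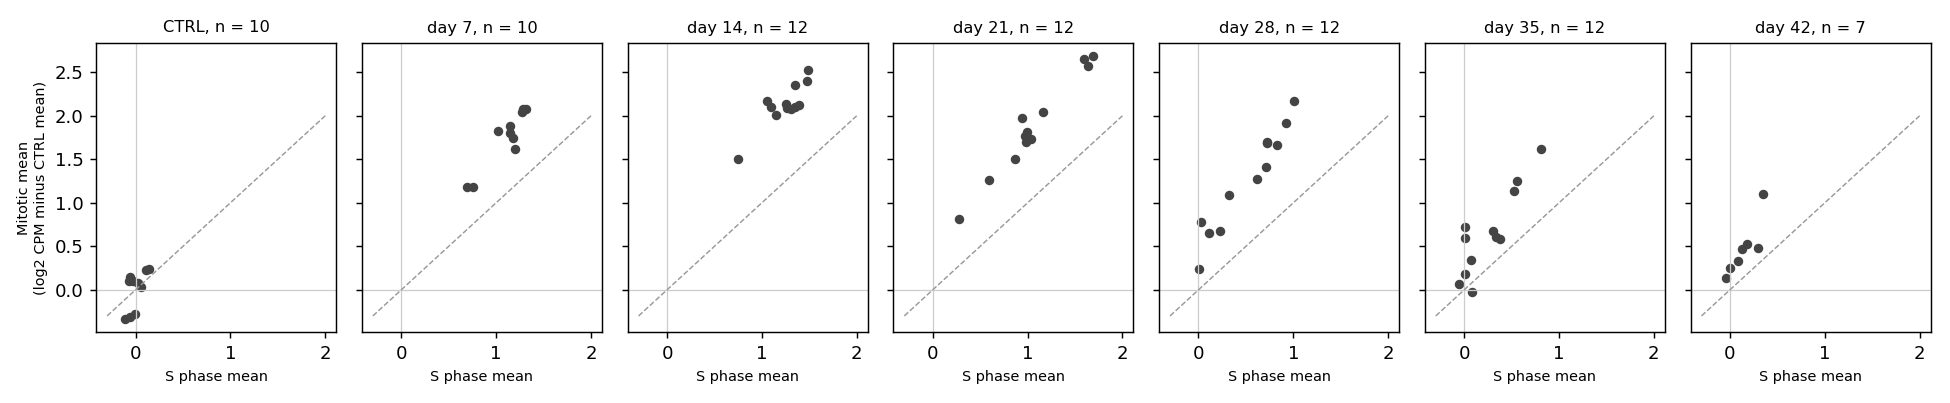
Mean log2 CPM of the mitotic genes (vertical axis) against that of the S phase genes (horizontal axis), both minus the CTRL mean, with 1 point per mouse, 1 panel per group and a dashed line where both rose equally. All mice of days 7, 14, 21, 28 and 42 lie above the line, and r ran from 0.61 in CTRL to 0.98 on day 21.

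Genes of the same pathways outside the members took similar courses. Of 38 other mitosis genes, 34, 36, 36, 35, 26 and 9 were higher than in CTRL on the 6 days in turn, against 24.8, 32.4, 28.3, 24.1, 16.9 and 13.7% of all genes. Their median log2FC was 1.96 on day 14, led by *Ckap2*, a spindle protein (2.93 ± 0.24, adjusted p = 1.3e-16). *Pttg1* (securin), which holds back the enzyme that separates chromatids, went the other way, at -0.61 ± 0.10 (adjusted p = 5.1e-07). Of 28 other DNA replication genes, 25, 25, 22, 13, 4 and 1 were higher on the 6 days, with a median log2FC of 0.78 on day 14. The last 2 of these counts were below the shares of all genes. *Clspn*, which carries checkpoint signals at stalled forks, rose by 2.35 ± 0.23, whereas *Pola2*, a subunit of the primase complex, was at -0.13 ± 0.07 on day 14 (adjusted p = 0.13) and at -0.51 ± 0.09 on day 42 (adjusted p = 1.0e-05).

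Other regulators of the cell cycle were given by 3 lists. On day 14, 32.4% of all genes were called higher and 29.9% lower. Of 6 G1 cyclins and their kinases 4 rose on day 14, with *Ccnd1* (cyclin D1) at 0.56 ± 0.07 as the largest value and *Cdk6* at 0.11 ± 0.08 (adjusted p = 0.24) as the smallest. Of 9 pocket proteins and other E2F factors, 3 rose and 2 fell, shares near or below those of all genes, with *E2f7*, the relative of *E2f8*, at 1.79 ± 0.19 and *E2f2* at -0.45 ± 0.07. Among 7 inhibitors of cyclin-dependent kinases, 5 rose and 1 fell. *Cdkn1a* (p21), which p53 switches on after DNA damage and which arrests cells in G1, had a log2FC of 3.20 ± 0.16 on day 7 and 3.15 ± 0.15 on day 14 (adjusted p = 1.4e-27 and 2.0e-27). On day 42 *Cdkn1a* was still higher by 2.02 ± 0.16 (adjusted p = 1.4e-15), when 10 of the 58 members were called. *Cdkn1b* (p27) fell by 0.60 ± 0.08 on the log2 scale on day 14.

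Markers of other cells moved with these genes. On day 14, 8 of 8 markers of monocyte-derived macrophages and 7 of 8 of fibroblasts and myofibroblasts were higher than in CTRL, against 32.4% of all genes, and the eighth of the latter was lower. Their summed levels were 202 to 288 and 1972 to 2556 CPM in CTRL, and 1501 to 9206 and 4682 to 12500 CPM on day 14, with *Spp1* and *Col3a1* as the most abundant genes. All 3 tested markers of germinal center B cells, which divide fast, were higher on day 14. Markers of thymus (4 of 4 tested), of red blood cells (6 of 6) and of B cells (6 of 6) were lower on day 14, against 29.9% of all genes, with thymus sums of 6.93 to 43.6 CPM in CTRL and 1.51 to 13.7 CPM on day 14. In the lists of macrophages, fibroblasts, thymus, red blood cells and B cells, 0 markers were at 0 in all mice of CTRL or day 14. Which cells held the members' RNA was not tested.

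Across mice, the deviations of *Mki67* followed the summed markers of fibroblasts and myofibroblasts (r = 0.576, rho = 0.591) and of monocyte-derived macrophages (r = 0.549, rho = 0.546), each with a permutation p of 1e-05 and an adjusted p of 0.00007 over 14 lists, of which 1 is not reported here. The macrophage sum was mostly *Spp1* on day 14, with a mean of 3412.5 of 4654.3 CPM, but not in CTRL, with 69.4 of 234 CPM. These tests were chosen after the data were seen. Thymus markers gave r = -0.002 (rho = -0.091, permutation p = 0.98 and 0.45).

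Some members share exonic sequence with a gene on the other strand, and the treatment of strand in counting is not given in the sources used here. If strand was ignored, reads of the partner could count for the member. The partners were more abundant than the member for *Ccna2* (*Exosc9*), *Kif20a* (*Cdc23*), *Kif4* (*Pdzd11*), *Cdca8* (*9930104L06Rik*), *Cdc20* (*Elovl1*), *Mcm7* (*Cops6* and *Ap4m1*), *Cdc45* (*Ufd1*), *Gins2* (*Gse1*) and *Ccne2* (*Ints8*). Levels of these 9 genes are therefore uncertain.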

How the data were processed

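Lung RNA of 75 mice was analysed, grouped by the sample labels into CTRL and BLEO-IPF mice of 6 days. The authors prepared directional libraries, aligned single-end reads with STAR 2.7.0f to GRCm38 with annotation of Ensembl release 96. The deposited values are counts, 1 per gene and mouse, and carry no normalization. The counting program is not given in the sources used here. All 75 columns of the count table were used. Totals of 9240291 to 14665247 counts set the precision.

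Counts were fitted in R 4.3.3 with edgeR 4.0.16 (quasi-likelihood test, TMM factors, filterByExpr, 1 mean per group, all 75 mice), with Benjamini-Hochberg adjustment over 16221 genes and a threshold of 0.05. ± is the SE of log2FC unless SD is named. CPM used TMM factors, and log2 CPM for correlations used a prior count of 2. Correlations with *Mki67* used 100000 permutations within groups (exact for 7 mice), two-sided. Their p-values were adjusted over all genes tested, a wider family than the members alone that had been planned. P-values rest on the spread between mice, with 1 library each.

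The members and lists were chosen with earlier results of these data known. Values by mouse are given for *Mki67*, *Top2a*, *Pcna* and the member with the largest log2FC on day 14 in each role, and members called lower on any day or called on all 6 days are named. From pathway lists the largest and smallest log2FC of day 14 and *Cdkn1a* were named. Members named beyond this rule were chosen after their values were seen. Promoters came from RefSeq (GRCm38.p6). Alternatives were DESeq2 1.42.0, scaling by library size alone or by upper quartile, a filter of at least 1 count in all or of 10 counts in every mouse, the replicate number as a block, fits of the compared groups alone, an absolute log2FC of at least 0.5 and each mouse left out in turn. For correlations they were library size scaling, a prior count of 0.5, the block, and omission of CTRL or of the 2 mice farthest from the median of *Mki67*. Cell type marker lists were summed in CPM, and their correlation with *Mki67* was added after the data were seen; the sum for germinal center B cells is not reported here. The steps were tested on simulated counts. Other steps ran in Python 3.11.15 (scipy 1.17.1, numpy 2.4.6, matplotlib 3.10.9, pandas 2.3.3).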

Additional observations from a re-analysis of the deposited data

Results flagged for a closer look

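In 78 groups of values, 6 had 1 mouse farther from the rest than Dixon's test allows at the 95% level, and chance gives about 1 in 20 groups. Only CTRL and days 7 and 42 were screened in this way. The larger groups of days 14, 21, 28 and 35 were not screened. In CTRL, *Pcna* was lowest in replicate 4 at 41.65 CPM, with the next mouse at 47.4 CPM. On day 42 *Pcna* was highest in replicate 3 at 58.26 CPM, with the next mouse at 51.6 CPM. The other 4 cases were the same mouse, replicate 7 of day 42. Its level was 5.60 CPM for *Plk1* (next mouse 3.85 CPM), 4.63 CPM for *Spc25* (2.96 CPM) and 39.18 CPM for *Top2a* (23.8 CPM), and its summed mitotic level was 371.34 CPM (251 CPM). These 4 values come from 1 library and are not independent of each other.

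The difference from the same CTRL mice also changed between days, by the test of the days themselves. It changed for 6 members from day 7 to day 14, for 16 from day 21 to day 28, for 11 from day 28 to day 35 and for 58 from day 14 to day 42.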

How the results depend on the processing

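Of 696 values (58 members in 12 comparisons), 370 were called, and the alternatives that took calls away or added them were, as lost and gained, library size scaling (7 and 1), upper quartile factors (3 and 1), no filter on low counts (28 and 0), at least 10 counts in every mouse (14 and 0, with 60 values of *Ccnb1*, *Ttk*, *Kif2c*, *Spc25* and *Mcm10* not tested), the replicate block (17 and 5), only the groups compared (28 and 35), DESeq2 (1 and 13) and an absolute log2FC of at least 0.5 (23 and 0). No called value changed direction. The S phase count was 10 in place of 17 on day 28 with a log2FC of at least 0.5, and 2 in place of 6 on day 35 without a filter. On day 42 it was 1 without a filter, 5 with only the groups compared and 1 with a log2FC of at least 0.5, in place of 2, and the mitotic count was 0 without a filter and 26 with only the groups compared, in place of 8. From day 7 to 14 the members called were 10 with the replicate block and 16 with only the groups compared, in place of 6. From day 21 to 28 they were 9 with the block and 0 with only the groups compared, in place of 16. From day 28 to 35 they were 6 without a filter, 4 with at least 10 counts, 5 with the block, 0 with only the groups compared and 18 by DESeq2, in place of 11. The cause was not tested. With 1 mouse left out, the S phase count ran from 13 to 17 on day 28, 2 (without day 35 replicate 6) to 6 on day 35, where it was also below 6 without CTRL replicate 7 and day 35 replicates 7 and 8, and 1 to 2 on day 42, with 1 without CTRL replicates 4, 7, 8 and 10 and day 42 replicates 1, 3, 4 and 5. The mitotic count ran from 24 to 34 on day 35 and from 0 to 10 on day 42, with 0 without day 42 replicate 7, 2 without CTRL replicate 7, 3 without CTRL replicates 2 and 6 or day 42 replicate 3, and 4 without day 42 replicates 1 and 5. The range was 3 (without day 7 replicate 3 or 7) to 7 from day 7 to 14, 3 to 46 from day 21 to 28 and 0 to 34 from day 28 to 35, where also day 28 replicate 2 left 0 calls and day 28 replicate 11 left 34. In these last 2 steps most single mice of the days compared moved the count by over 1.5 times. Counts of days 7, 14 and 21 against CTRL and of day 42 against day 14 kept their value with any mouse left out. Coupling kept 57 positive calls under its 5 alternatives, with a median r of 0.77 to 0.83 (0.81 with the block). The replicate numbers did not pair mice, since the median correlation of deviations was 0.0057 for the same number and 0.0018 for different numbers, 63 of 204 pairs exceeded 0.1, and 7 of 75 mice were closest to a mouse of their own number. Members with about 1 CPM in CTRL, such as *Ttk* and *Ccnb1*, have imprecise folds at this depth.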

Other observations

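Markers of the remaining cell types are given as values for day 14 against CTRL, when 32.4% of all genes were called higher and 29.9% lower. Of 6 markers of transitional epithelial cells 5 were higher, with sums of 745 to 949 CPM in CTRL and 1107 to 1784 CPM on day 14. Of 6 markers of type 2 alveolar cells 5 were lower, with sums of 20101 to 24775 CPM in CTRL and 5574 to 21426 CPM on day 14. Of 5 markers of type 1 alveolar cells 1 was higher and 2 were lower, and of 6 endothelial markers 5 were lower. Of 7 alveolar macrophage markers 1 was higher and 3 were lower, and of 5 neutrophil markers 2 were higher. Of 4 plasma cell markers tested 2 were higher and 1 was lower, and of 6 T cell markers 1 was lower.

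Across the deviations of 75 mice, *Mki67* had negative r with the summed markers of endothelial cells (-0.37, adjusted p = 0.0076), type 1 (-0.35, adjusted p = 0.011) and type 2 alveolar cells (-0.31, adjusted p = 0.017), neutrophils (-0.34, adjusted p = 0.0041) and B cells (-0.33, adjusted p = 0.011), by permutation tests with rho of -0.40, -0.30, -0.30, -0.31 and -0.34. Plasma cell markers gave r = 0.28 (rho = 0.29, permutation test, adjusted p = 0.047), and markers of red blood cells gave r = -0.21 (rho = -0.32, permutation test, adjusted p = 0.091). The plasma cell sum was mostly *Sdc1*, which had a mean of 239 CPM in CTRL, where the sum had a mean of 277 CPM. T cell, alveolar macrophage and transitional epithelial markers had r of 0.17, 0.13 and 0.13, with adjusted p of 0.19, 0.35 and 0.35 by the permutation test. Shares of a library are bound to each other, and whether the relations reflect this was not tested.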
